A study of Mus musculus with 6 samples.

Results

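The 10 genes described here encode RNA-binding proteins that set alternative splicing in skeletal muscle, namely *Rbfox2*, *Mbnl1*, *Mbnl2*, *Mbnl3*, *Celf1*, *Celf2*, *Ptbp1*, *Ptbp2*, *Rbm24* and *Rbm38*. They were taken as a list of gene names. All 10 were among the 14548 genes of the files, and all 10 were among the 10837 genes with at least 1 FPKM (fragments scaled by exon length and by the mapped total) in at least 1 library. The study compared RNA-seq libraries of C2C12 cells, a mouse myoblast line grown in serum-containing medium. Of the 6 libraries, 3 were WT and 3 were MSTN-KO, the line C11, in which Cas9 and an sgRNA had been aimed at exon 3 of the myostatin gene *Mstn*. The labels name C11 as the strain of all 6 libraries and give the genotype as WT or MSTN-KO. As there was 1 MSTN-KO line, an effect of lost myostatin and a trait of that line cannot be told apart. The labels do not say that replicates came from separate cultures, so the p-values measure the spread between these libraries, which may be technical.

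When myoblasts stop dividing and fuse, many transcripts of the contractile apparatus change their exons, and these 10 proteins are known regulators of that switch. MBNL proteins favour the exons of mature muscle and CELF proteins those of embryonic muscle, and MBNL proteins are the ones trapped by the expanded CUG repeats of myotonic dystrophy. RBFOX2 binds UGCAUG elements beside exons, PTBP1 and PTBP2 mostly repress exons, and RBM24 and RBM38 are paralogs that act on exons and on mRNA stability. FPKM was given per gene, so exon use was not measured, and every value below is a level of RNA from the whole gene.

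The sequence before the RefSeq start of the 3 genes that passed the test below is shown. The reason is that myogenic factors such as MyoD and myogenin act through E-boxes, the motif CANNTG, which reads the same on both strands. Each window holds the 250 bases before the RefSeq start on GRCm38.p6, written 5′ to 3′ on the strand of the gene, with E-boxes in capitals. The windows are chr13:46418050-46418299 (plus strand) for *Rbm24*, chr14:120275419-120275668 (plus strand) for *Mbnl2* and chrX:51205991-51206240 (minus strand) for *Mbnl3*.
Rbm24: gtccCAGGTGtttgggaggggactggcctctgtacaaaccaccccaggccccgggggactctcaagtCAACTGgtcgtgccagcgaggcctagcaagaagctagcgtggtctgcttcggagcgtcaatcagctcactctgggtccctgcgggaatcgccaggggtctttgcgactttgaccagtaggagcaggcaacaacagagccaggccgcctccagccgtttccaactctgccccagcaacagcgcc
Mbnl2: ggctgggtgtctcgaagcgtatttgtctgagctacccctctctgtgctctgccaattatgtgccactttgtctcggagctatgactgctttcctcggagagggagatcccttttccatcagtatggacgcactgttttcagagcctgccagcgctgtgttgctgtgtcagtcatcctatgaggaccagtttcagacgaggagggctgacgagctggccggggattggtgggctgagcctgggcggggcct
Mbnl3: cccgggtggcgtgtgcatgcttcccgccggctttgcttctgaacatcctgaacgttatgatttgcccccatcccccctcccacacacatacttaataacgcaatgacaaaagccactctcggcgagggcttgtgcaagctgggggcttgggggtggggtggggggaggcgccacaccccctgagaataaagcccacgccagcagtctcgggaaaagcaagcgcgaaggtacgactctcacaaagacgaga
The *Rbm24* window held 2 E-boxes, CAGGTG beginning 246 bases and CAACTG beginning 183 bases before the start. The *Mbnl2* and *Mbnl3* windows held 0. The *Mbnl3* window lies inside the gene as placed by GENCODE M21 (51117269 to 51206532), so it does not show the sequence before that start. RefSeq windows were matched for 9 of the 10 genes, 14 windows in all, and 7 of the 14 held an E-box, from *Celf2*, *Mbnl1*, *Ptbp1* and *Rbm24*. The *Celf2* windows chr2:7396001-7396250 and chr2:7396199-7396448 overlap and share their E-boxes, so these windows are not all independent. Of all 32851 windows of this length, 66.2% held at least 1 E-box and 31.8% at least 2, so an E-box in such a window is common. The motif of MEF2 was in 0 of the 14 windows and in 1.69% of all windows.

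Of the libraries as a whole, a few facts bear on these genes. *Mstn* was at most 0.0586 FPKM in all 6 libraries, too low to check the genotypes from these values. For C11 cells, the study reported a destroyed target sequence and, by Western blot, a lack of MSTN protein. The number of fragments is unknown. The myoblast genes *Myod1*, *Des* and *Myf5* had means of 145, 710 and 11.3 FPKM in WT and of 96.1, 363 and 12.1 FPKM in MSTN-KO, while the summed markers of endothelial cells and neurons were at most 0.167 FPKM in every library. Of 7 measured markers of fibroblasts, macrophages and adipocytes, *Fabp4* and *Dpt* were higher in all MSTN-KO libraries than in any WT library. *Fabp4*, a fatty acid carrier of adipocytes, was at 0.147, 0.252 and 0.324 FPKM in WT and at 1.03, 0.919 and 1.76 FPKM in MSTN-KO (limma adjusted p = 0.00924). It reached 1 FPKM in MSTN-KO libraries only, so it was tested through the group in which it was high. *Dpt*, a matrix gene of fibroblasts, was at 0.234, 0 and 0.0306 FPKM in WT and at 0.508, 0.426 and 0.410 FPKM in MSTN-KO, below the level for testing. The summed fibroblast markers overlapped, at 0.849 to 1.96 FPKM in WT and 1.22 to 1.37 FPKM in MSTN-KO, as did those of macrophages. The part of other cell types in the results below was not tested. WT replicate 3 was lower than the mean of the other two WT libraries for all 19 measured markers of differentiating muscle cells, with a median ratio of 0.305. MSTN-KO replicate 3 was lower for long transcripts. Across 10784 genes, its deviation from the mean of the 6 libraries had a Spearman's rho of -0.40 with exon length and 0.50 with GC content, as a description over genes that share libraries. The rho with GC content was 0.11, -0.27 and -0.52 in WT replicates 1, 2 and 3, and 0.12 and -0.23 in MSTN-KO replicates 1 and 2. WT replicate 3 was thus skewed about as much, in the other direction. Of the 10 splicing regulators, 7 are among the 2695 longest tested genes, with at least 6843 bases of exon.

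Expression covered a wide range, and FPKM is per length, so the levels were set beside each other. The length and GC trends of the libraries remain in these levels, and in the family shares below. *Ptbp1* was highest in both groups, at 190 ± 18.8 FPKM (SD, n = 3) in WT and 246 ± 10.3 FPKM in MSTN-KO. *Rbfox2* came next, at 50.3 ± 6.97 and 47.1 ± 1.59 FPKM. The ranges of *Ptbp1* and *Rbfox2* did not overlap with those of the gene ranked after them in either group. In WT, *Mbnl1* (29.9 ± 6.02 FPKM), *Celf1* (26.4 ± 1.83), *Celf2* (21.2 ± 1.36), *Rbm38* (19.0 ± 2.50) and *Mbnl2* (15.1 ± 2.29) followed, where the ranges of *Mbnl1* and *Celf1* and those of *Celf2* and *Rbm38* overlapped. *Ptbp2* (7.90 ± 1.25), *Rbm24* (4.38 ± 1.90) and *Mbnl3* (1.23 ± 0.125) closed the order in WT. In MSTN-KO the last positions were exchanged, with *Mbnl3* at 2.54 ± 0.346 FPKM above *Rbm24* at 0.492 ± 0.197 FPKM, without overlap between these genes. From *Celf1* down to *Ptbp2*, each gene in the MSTN-KO order overlapped with the next.

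**Figure D1:**
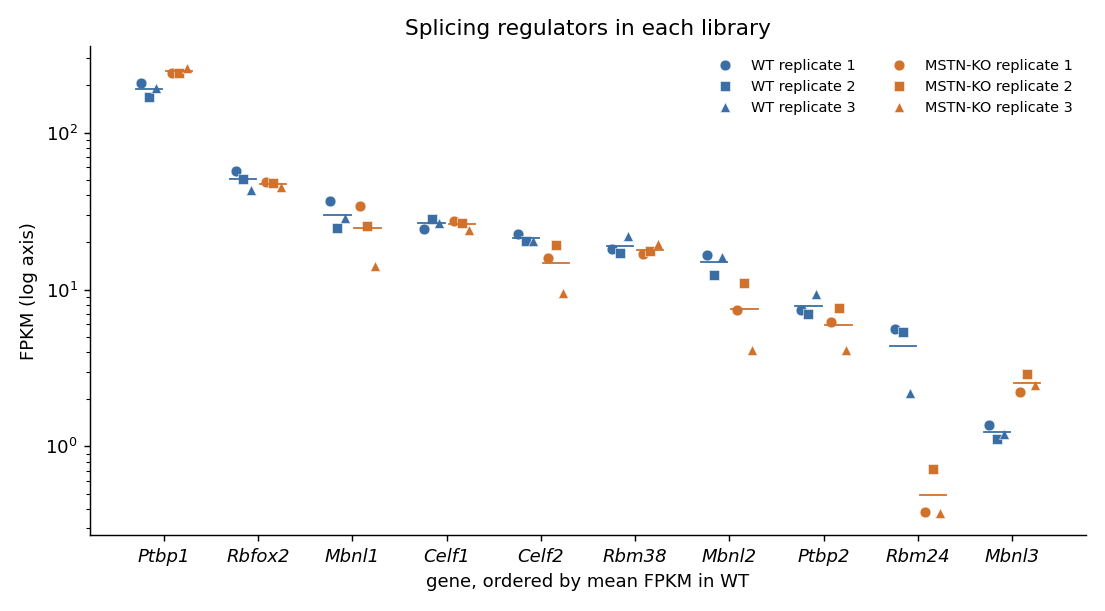
FPKM of the 10 splicing regulators on a log axis, with 1 point per library and a bar at the mean of each group of 3. *Rbm24* is lower and *Mbnl3* higher in all 3 MSTN-KO libraries than in all 3 WT libraries, and *Ptbp1* lies at 169 FPKM or more in every library.

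The question of the comparison was which genes differ between MSTN-KO and WT cells. On the log2(FPKM + 1) scale, fitted with limma over all 10837 genes, *Rbm24* and *Mbnl2* fell in MSTN-KO and *Mbnl3* rose, at a Benjamini-Hochberg adjusted p under 0.05. The other 7 did not pass. Lower calls were thus 2 of 10, where 8.96% of all tested genes were called lower, and higher calls were 1 of 10, where 8.78% of all were called higher. In all, 8 of the 10 had a lower mean log2 value in MSTN-KO, with a median log2 fold change of -0.21. Over all tested genes the median was 0.00 (-0.00078), so about as many genes were lower as higher. Once library trends with length and GC content had been removed, the median was -0.10 for the 10 genes, beside 0.01 for all. *Celf1* then turned from lower to higher (0.060). By other criteria, of p under 0.05 without adjustment and a change beyond 1 in size on the log2 scale, *Rbm24* was the 1 downregulated gene, beside 2.30% of all tested genes, and 0 of the 10 were upregulated, beside 1.21%. That count of 0 is from limma, with which 2 of the 10 were higher and 3 lower at an unadjusted p under 0.05. With every library scaled to the same sum of FPKM, which moved the median of all genes by -0.26, 0 of the 10 were called higher and 3 lower by limma, beside 360 higher and 2425 lower among all genes, against 952 and 971 without that scaling. These are differences in RNA per library, and in bulk samples fewer cells of a type and less RNA per cell cannot be told apart.

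*Rbm24* (ENSMUSG00000038132, chromosome 13 of GRCm38, 46418434 to 46431095) encodes a muscle-enriched protein needed for the inclusion of muscle exons and for sarcomere assembly. Replicates 1, 2 and 3 had 5.60, 5.34 and 2.19 FPKM in WT, against 0.381, 0.719 and 0.376 FPKM in MSTN-KO. There was no overlap, although WT replicate 3 lay well below the other WT libraries. Only WT libraries reached 1 FPKM, so *Rbm24* was tested through the group in which it was high. The mean fell by 88.7%, with a log2 fold change of -1.78 ± 0.25 (SE, adjusted p = 0.000387 with limma). The call held in all 18 alternative fits, with log2 fold changes from -2.85 to -1.60 and a largest limma adjusted p of 0.0101. Its paralog *Rbm38* (ENSMUSG00000027510, chromosome 2, 173020498 to 173034734), a p53 target that binds and stabilizes mRNAs, was at 18.2, 17.0 and 21.8 FPKM in WT and at 16.8, 17.5 and 19.5 FPKM in MSTN-KO. The groups overlapped, and the log2 fold change was -0.07 (95% interval -0.37 to 0.23, limma adjusted p = 0.742). The ratio of *Rbm38* to *Rbm24* was 3.25, 3.19 and 9.97 in WT, against 44.1, 24.3 and 51.9 in MSTN-KO, a difference of 3.02 on the log2 scale that no common scaling of a library can change. *Rbm24* made up 18.8% ± 8.42 of the summed FPKM of the pair in WT and 2.69% ± 1.11 in MSTN-KO.

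*Rbm24* was lower in MSTN-KO together with the genes of muscle differentiation. WT replicate 3, which was low in those genes, had 0.400 times the mean *Rbm24* of the other two WT libraries. *Myog*, the gene of the differentiation factor myogenin, was at 175, 148 and 47.3 FPKM in WT and at 7.33, 10.2 and 11.6 FPKM in MSTN-KO. *Mylpf*, a myosin light chain of fast fibres, was at 419, 399.9 and 115 FPKM in WT and at 9.50, 18.3 and 21.7 FPKM in MSTN-KO. Of 20 listed markers of differentiating myocytes and myotubes, 18 were tested, and all 18 fell in MSTN-KO, where 8.96% of all tested genes fell. Among them, *Myh3*, *Ckm* and *Casq2* reached 1 FPKM in WT libraries only. These were thus tested through the group in which they were high and could be called only as lower. The median log2 fold change of the 18 markers was -2.63. The summed level of the markers was 741 to 1778 FPKM in WT against 205 to 293 FPKM in MSTN-KO. Among the MSTN-KO libraries the order differed, since replicate 3 had the highest *Myog*, *Mylpf* and summed marker level and the lowest *Rbm24*. The part of differentiation state in the fall of *Rbm24* was not tested. Without WT replicate 3, the log2 fold change of *Rbm24* was -2.12. On chromosome 13, the one of *Rbm24*, the median log2 difference of 410 tested genes was -0.34, with 29.3% of them called lower, and its part in the fall was not tested either.

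**Figure D2:**
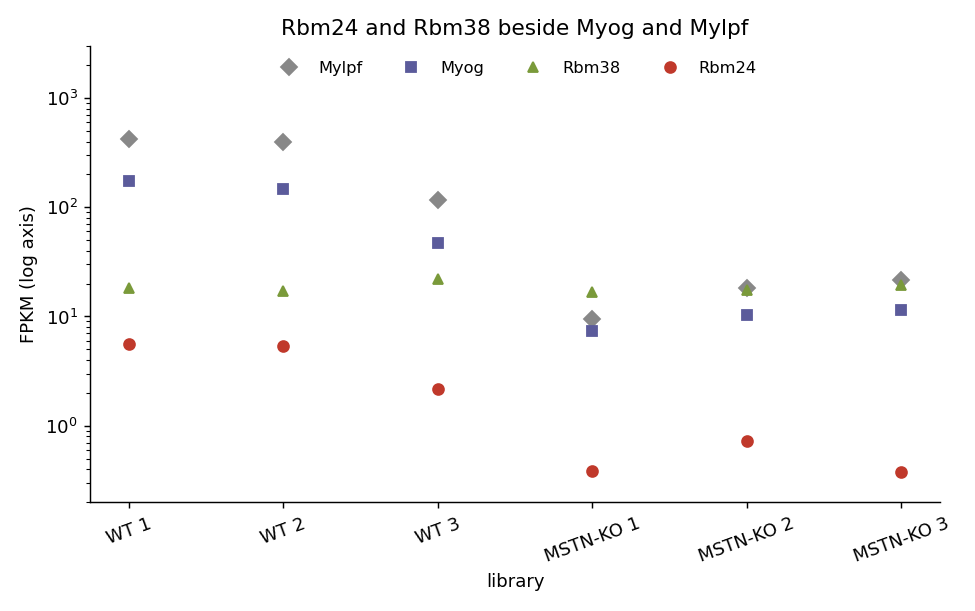
FPKM of *Rbm24* and its paralog *Rbm38* beside the muscle genes *Myog* and *Mylpf* in each library, on a log axis, with 1 point per library. *Rbm24*, *Myog* and *Mylpf* are lower in WT 3 than in WT 1 and WT 2 and lower again in the MSTN-KO libraries, whereas *Rbm38* stays between 16.8 and 21.8 FPKM.

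Among the genes whose log2 values followed *Rbm24* most closely over the 6 libraries were *Trim72*, *Klhl41*, *Arl10* and *Mybph*, each with a Pearson's r between 0.997 and 0.998. This is a description of 6 libraries in 2 separated groups, and 642 of 10783 other genes had an r over 0.9. *Trim72* encodes the membrane repair protein MG53 of striated muscle, *Klhl41* a sarcomere-associated protein, and *Mybph* a myosin-binding protein of muscle. *Trim72* was at 5.84, 5.71 and 2.01 FPKM in WT and at 0.168, 0.275 and 0.0751 FPKM in MSTN-KO. *Mybph* was at 29.8, 26.6 and 6.44 FPKM in WT and at 0.155, 0.773 and 0.541 FPKM in MSTN-KO. In both, WT replicate 3 was the lowest WT library and the groups did not overlap.

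In the MBNL family, *Mbnl2* fell and *Mbnl3* rose. *Mbnl2* (ENSMUSG00000022139, chromosome 14, 120275669 to 120431697), which in muscle shares many targets with *Mbnl1*, was at 16.7, 12.4 and 16.0 FPKM in WT and at 7.36, 11.0 and 4.14 FPKM in MSTN-KO. All MSTN-KO values lay under the lowest WT value, but MSTN-KO replicate 2 came close to WT replicate 2. The mean fell by 50.1%, with a log2 fold change of -0.99 ± 0.25 (SE, adjusted p = 0.0154 with limma). The call was lost without MSTN-KO replicate 3 (log2 fold change -0.67, limma adjusted p = 0.0511) and without WT replicate 1 (-0.91, limma adjusted p = 0.0760). *Mbnl2* has 11993 bases of exon, and once library trends with length and GC content had been removed, the log2 difference was -0.84 (limma adjusted p = 0.0133), or -0.65 (0.0361) when MSTN-KO replicate 3 was also left out. On chromosome 14 the median log2 difference of 367 tested genes was -0.29, with 24.3% of them called lower, and its part in the fall of *Mbnl2* was not tested.

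*Mbnl3* (ENSMUSG00000036109, chromosome X, 51117269 to 51206532), the MBNL gene associated with proliferating rather than mature muscle cells, was at 1.37, 1.12 and 1.20 FPKM in WT and at 2.22, 2.91 and 2.48 FPKM in MSTN-KO. The groups were clearly apart, although all values were low. The mean in MSTN-KO was 2.06 times that in WT, with a log2 fold change of 0.66 ± 0.16 (SE, adjusted p = 0.0139 with limma). With a pseudocount of 0.1, which understates low genes less, the log2 fold change was 0.98. With the length and GC trends removed it was 0.89 (limma adjusted p = 0.00412), or 0.74 (0.0132) when MSTN-KO replicate 3 was also left out. Without WT replicate 2 the call was lost (0.63, limma adjusted p = 0.0700).

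*Mbnl1* (ENSMUSG00000027763, chromosome 3, 60472830 to 60629750), the main MBNL gene of muscle, was at 36.5, 24.6 and 28.6 FPKM in WT and at 34.2, 25.6 and 14.1 FPKM in MSTN-KO. The groups overlapped, and MSTN-KO replicate 3 alone lay below all others. The log2 fold change was -0.33 (95% interval -0.87 to 0.20, limma adjusted p = 0.372), and it was -0.047 with the length and GC trends removed (0.884) and 0.00 (0.0040) without MSTN-KO replicate 3. *Mbnl1* held 64.6% ± 2.25 of the summed FPKM of the 3 MBNL genes in WT and 70.3% ± 6.98 in MSTN-KO. The share of *Mbnl2* was 32.7% ± 2.19 in WT and 21.6% ± 5.75 in MSTN-KO, and that of *Mbnl3* was 2.69% ± 0.224 and 8.12% ± 3.50. In each MSTN-KO library the share of *Mbnl2* was below, and that of *Mbnl3* above, every WT library. The sum of the 3 genes overlapped between groups, at 54.5, 38.2 and 45.8 FPKM in WT and 43.8, 39.5 and 20.8 FPKM in MSTN-KO.

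**Figure D3:**
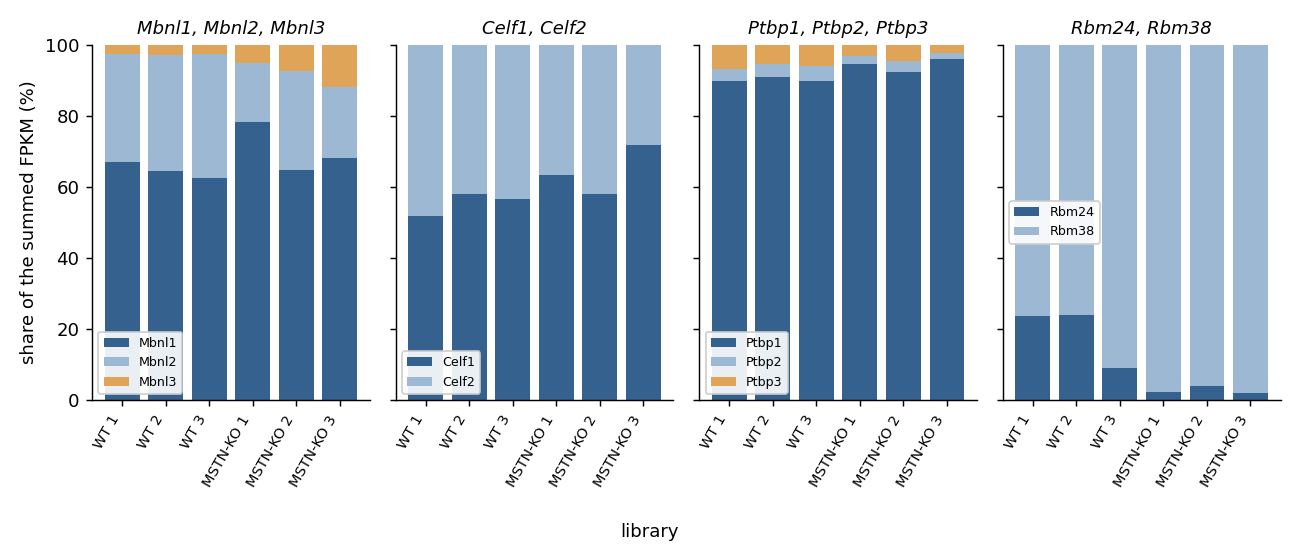
Share of each paralog in the summed FPKM of its family, in percent, with 1 stacked bar per library, for *Mbnl1* to *Mbnl3*, *Celf1* and *Celf2*, *Ptbp1* to *Ptbp3*, and *Rbm24* and *Rbm38*. *Mbnl3* has 2.51% to 2.94% of its family in WT and 5.07% to 11.9% in MSTN-KO, and *Rbm24* has 9.12% to 23.9% of its pair in WT and 1.89% to 3.95% in MSTN-KO.

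Neither gene of the polypyrimidine tract-binding proteins passed the test. *Ptbp1* (ENSMUSG00000006498, chromosome 10, 79854427 to 79864771), a widely expressed repressor of neuronal and muscle exons, was at 207, 169 and 193 FPKM in WT and at 241, 239 and 258 FPKM in MSTN-KO. Every MSTN-KO library was above every WT library, by 29.6% on average, with a log2 fold change of 0.38 ± 0.12 (SE, adjusted p = 0.0513 with limma). With the length and GC trends removed it was 0.32 and passed (limma adjusted p = 0.0252). It was 0.22 after quantile normalization (limma adjusted p = 0.130) and 0.091 with libraries scaled to the same sum (0.451), a scaling that moved the median of all genes by -0.26. *Ptbp2* (ENSMUSG00000028134, chromosome 3, 119718742 to 119784466), the paralog whose productive splicing PTBP1 represses, was at 7.45, 6.94 and 9.32 FPKM in WT and at 6.17, 7.63 and 4.09 FPKM in MSTN-KO. The groups overlapped, with a log2 fold change of -0.38 (95% interval -0.80 to 0.04, limma adjusted p = 0.194), and it was -0.13 after the correction and -0.17 without MSTN-KO replicate 3 (0.550). The ratio of *Ptbp1* to *Ptbp2* was 27.7, 24.4 and 20.7 in WT and 39.0, 31.3 and 62.9 in MSTN-KO, higher in each MSTN-KO library than in any WT library.

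The genes that followed *Ptbp1*, the most abundant of the 10, most closely over the 6 libraries were *Mybbp1a*, *Rps3*, *Galk1*, *H2-Q1* and *Det1*, with a Pearson's r between 0.988 and 0.991, and 637 of 10783 other genes had an r over 0.9. *Mybbp1a* encodes a nucleolar protein of ribosome production, *Rps3* a protein of the small ribosomal subunit and *Galk1* galactokinase. *Mybbp1a* was at 85.8, 70.8 and 84.6 FPKM in WT and at 104, 102 and 116 FPKM in MSTN-KO, so that, as for *Ptbp1*, WT replicate 2 was lowest and MSTN-KO replicate 3 highest. The summed FPKM of all genes was likewise lowest in WT replicate 2 (723705) and highest in MSTN-KO replicate 3 (999579). Each MSTN-KO sum was above each WT sum. *H2-Q1* has near-identical relatives among the MHC class I genes, with which it could share reads.

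Neither CELF gene passed the test. *Celf1* (ENSMUSG00000005506, chromosome 2, 90940382 to 91019497), which favours embryonic exons and marks GU-rich mRNAs for decay, was at 24.5, 28.1 and 26.7 FPKM in WT and at 27.5, 26.5 and 24.1 FPKM in MSTN-KO. These groups overlapped almost fully, with a log2 fold change of -0.02 (95% interval -0.29 to 0.25, limma adjusted p = 0.928). *Celf2* (ENSMUSG00000002107, chromosome 2, 6539694 to 7509563), a close paralog with the same kind of targets, was at 22.7, 20.3 and 20.5 FPKM in WT and at 15.9, 19.1 and 9.48 FPKM in MSTN-KO. Each MSTN-KO library was below each WT library, with a log2 fold change of -0.54 ± 0.20 (SE, adjusted p = 0.0827 with limma). With 25884 bases, *Celf2* has the longest exon sequence of the 10, and its log2 fold change was -0.30 with those trends removed (limma adjusted p = 0.0995) and -0.26 without MSTN-KO replicate 3 (0.246). The ratio of *Celf1* to *Celf2* was 1.08, 1.38 and 1.30 in WT and 1.73, 1.385 and 2.54 in MSTN-KO, with MSTN-KO replicate 2 hardly above WT replicate 2 (1.385 against 1.383).

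*Rbfox2* (ENSMUSG00000033565, chromosome 15, 77078990 to 77307004), the main RBFOX gene of myoblasts, was at 57.1, 50.7 and 43.1 FPKM in WT and at 48.2, 47.9 and 45.3 FPKM in MSTN-KO. The MSTN-KO values lay within the WT range. The log2 fold change was -0.08 (95% interval -0.37 to 0.20, limma adjusted p = 0.698).

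**Figure D4:**
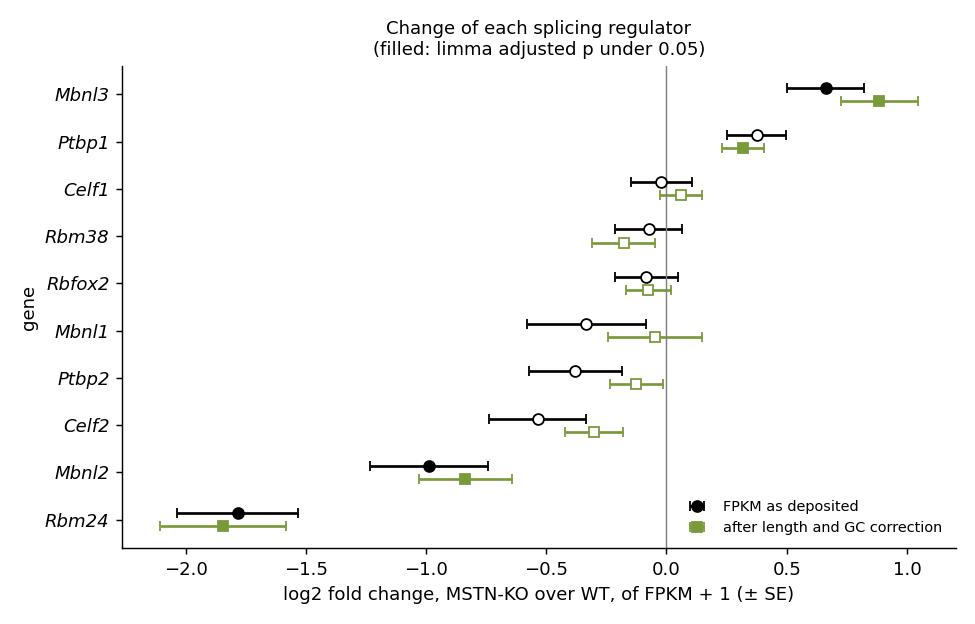
Log2 fold change of FPKM + 1 in MSTN-KO over WT for each of the 10 genes, with standard errors, from the values as deposited (circles) and after removal of library trends with length and GC content (squares), filled where the limma adjusted p was under 0.05. *Rbm24*, *Mbnl2* and *Mbnl3* are filled in both, and *Ptbp1* after the correction only.

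In all, the groups did not overlap for 5 of the 10 genes, namely *Mbnl3* and *Ptbp1*, which were higher (2 of 10, where 19.3% of all tested genes did not overlap and were higher in MSTN-KO), and *Rbm24*, *Mbnl2* and *Celf2*, which were lower (3 of 10, where 18.1% did so). For each of these 5 genes a two-sided exact permutation test over the 20 regroupings gave p = 0.1, the smallest that 3 libraries against 3 allow. The 5 ratios of paralogs (*Mbnl1* and *Mbnl3* over *Mbnl2*, *Celf1* over *Celf2*, *Ptbp1* over *Ptbp2* and *Rbm38* over *Rbm24*) did not overlap between groups either. The share of other gene pairs that do so was not computed, and *Mbnl2* is in 2 of the 5. These ratios still hold the length and GC trends of the libraries. For *Celf1* over *Celf2* the groups were apart only by 1.385 against 1.383. The members with the longest exons were also those in which MSTN-KO replicate 3 stood apart. Its log2 value was below the mean of the other two MSTN-KO libraries by 1.01 for *Mbnl1*, by 0.96 for *Mbnl2*, by 0.82 for *Celf2* and by 0.63 for *Ptbp2*, whereas the median was -0.20 for those 2695 longest genes and 0.04 for all genes. For the other 6 genes this difference lay between -0.16 and 0.18. With the length and GC trends removed it was -0.42 for *Mbnl1*, -0.57 for *Mbnl2*, -0.33 for *Celf2* and -0.13 for *Ptbp2*. The same correction made it larger in size for *Mbnl3* (from -0.027 to 0.42) and *Rbm24* (from -0.16 to -0.33). For *Celf1*, *Rbfox2*, *Ptbp1* and *Rbm38* the corrected difference lay between -0.079 and 0.024.

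Other genes of the splicing machinery were described by lists of paralogs, SR proteins with Tra2, hnRNP proteins, other RNA-binding regulators and kinases of SR proteins. Of 78 listed genes, 69 were in the files and 60 were tested, and 3 of these rose, 3 fell and 54 did not pass, beside 8.78% called higher and 8.96% called lower among all genes. Their median log2 fold change was -0.02. Those that rose were *Rbpms*, which encodes an RNA-binding protein of muscle cells (8.45 ± 0.531 FPKM in WT and 14.5 ± 1.74 in MSTN-KO, log2 fold change 0.71, limma adjusted p = 0.00431), *Clk2*, a kinase of SR proteins (9.24 ± 0.594 and 13.8 ± 1.17 FPKM, 0.53, limma adjusted p = 0.0173), and the SR protein gene *Srsf4* (29.7 ± 2.22 and 39.9 ± 4.60 FPKM, 0.41, limma adjusted p = 0.0473). The call of *Clk2* was lost without WT replicate 2 (limma adjusted p = 0.0600) or MSTN-KO replicate 1 (0.0583), and that of *Srsf4* was lost without any single library except MSTN-KO replicate 2 (0.0796 to 0.138).

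Those that fell were *Srpk3*, *Khdrbs3* and *Tra2b*. *Srpk3*, a kinase of SR proteins found mainly in striated muscle, was at 1.26, 1.48 and 0.254 FPKM in WT and was listed at 0 in all 3 MSTN-KO libraries (limma adjusted p = 0.0168). It reached 1 FPKM in WT libraries only, so it was tested through the group in which it was high and could be called only as lower. Like *Rbm24* and the muscle markers, it was lowest among the WT libraries in replicate 3. Its call was lost without WT replicate 1 (limma adjusted p = 0.0901), WT replicate 2 (0.0799) or MSTN-KO replicate 3 (0.0606). *Khdrbs3*, a STAR family splicing regulator, went from 7.37 ± 0.898 to 4.48 ± 0.947 FPKM (log2 fold change -0.62, limma adjusted p = 0.0221), and the call was lost when WT replicate 2, WT replicate 3, MSTN-KO replicate 1 or MSTN-KO replicate 2 was left out (limma adjusted p from 0.0522 to 0.101). *Tra2b*, an activator of exon inclusion, went from 40.4 ± 5.05 to 26.2 ± 2.81 FPKM (log2 fold change -0.60, limma adjusted p = 0.00993), and its call held without any single library.

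By list, the SR proteins with Tra2 had 1 rise and 1 fall among 11 tested genes. Of 18 tested hnRNP genes, 0 rose and 0 fell by limma's adjusted p, and 0 had an unadjusted p under 0.05. The other RNA-binding regulators had 1 rise and 1 fall among 21, and the kinases 1 and 1 among 7. Among the paralogs of the 10 genes, *Ptbp3* was at 16.1, 10.2 and 12.8 FPKM in WT and at 8.04, 11.96 and 6.67 FPKM in MSTN-KO (log2 fold change -0.52, limma adjusted p = 0.0966). *Celf4* was at 2.49 ± 0.225 and 3.00 ± 0.298 FPKM (limma adjusted p = 0.406) and *Celf5* at 0.921 ± 0.180 and 0.958 ± 0.0862 FPKM (0.918). *Rbfox1* and *Celf6* had at most 0.195 FPKM in any library and were not tested. Thus 0 of the 3 tested paralogs were called by limma, with 0 higher and 1 lower at an unadjusted p under 0.05.

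**Figure D5:**
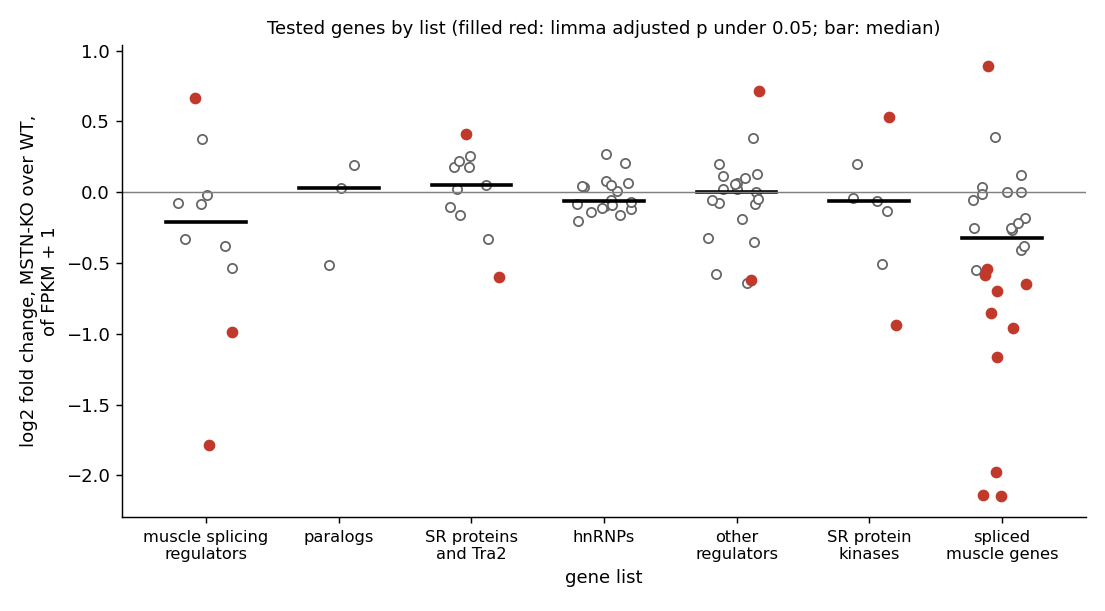
Log2 fold change of FPKM + 1 in MSTN-KO over WT for each tested gene of 7 lists, with filled red points for a limma adjusted p under 0.05 and a bar at the median of each list. Among the 10 muscle splicing regulators *Rbm24* lies lowest at -1.78, lower than any of the 60 other tested splicing genes, of which *Srpk3* is lowest at -0.94.

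Transcripts whose exons these proteins are known to control in muscle were listed next, as levels of whole genes. All 28 listed genes were in the files and 26 were tested. Of these, 10 fell, 1 rose and 15 did not pass, with a median log2 fold change of -0.32, beside the same 8.96% and 8.78% of all genes. The genes that fell most were *Atp2a1*, the calcium pump SERCA1, *Tnnt2*, cardiac troponin T of embryonic muscle, and *Tnnt3*, troponin T of fast fibres. *Atp2a1* was at 17.8, 19.8 and 4.23 FPKM in WT and at 1.72, 1.78 and 2.14 FPKM in MSTN-KO (log2 fold change -2.14 ± 0.38 SE, adjusted p = 0.00236 with limma). *Tnnt2* was at 60.6, 85.0 and 70.8 FPKM in WT and at 13.3, 16.8 and 16.6 FPKM in MSTN-KO (-2.14 ± 0.15 SE, adjusted p = 9.85e-07 with limma). *Tnnt3* was at 33.0, 49.2 and 12.2 FPKM in WT and at 4.91, 7.72 and 6.20 FPKM in MSTN-KO (-1.98 ± 0.35 SE, adjusted p = 0.00232 with limma). WT replicate 3 was the lowest WT library for *Atp2a1* and *Tnnt3* but not for *Tnnt2*. *Tnnt3* is also among the muscle markers described above. The part of differentiation state in the falls of this list was not tested. *Ttn*, *Ryr1*, *Cacna1s*, *Dtna*, *Mef2a* and *Itga7* also fell, with log2 fold changes from -1.16 to -0.54, of which that of *Ttn* passed without each single library. The calls of the other 5 were lost without WT replicate 1 (limma adjusted p from 0.0718 to 0.158), and each of them also without at least 1 other library (0.0550 to 0.178). *Cacna1s* reached 1 FPKM in WT replicate 2 only, so it was tested through the group in which it was high. The call of *Dtna* was also lost with the length and GC trends removed (log2 fold change -0.46, limma adjusted p = 0.0561). *Tpm2*, the beta-tropomyosin gene whose muscle exon PTBP1 represses, rose from 250 ± 13.9 to 469 ± 92.0 FPKM (log2 fold change 0.89, limma adjusted p = 0.00144).

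Only 2 mRNAs were listed as bound by RBM24 or RBM38, and they were chosen with earlier results of these data known. Both fell, where 8.96% of all tested genes were called lower. A count over 2 such genes cannot show a change in the targets of these proteins. *Myog* is also among the muscle markers described above. For *Myog* the difference was -3.36 on the log2 scale (limma adjusted p = 3.98e-05). *Cdkn1a*, which encodes the cell cycle inhibitor p21, was at 279, 232 and 195 FPKM in WT and at 124, 131 and 154 FPKM in MSTN-KO, without overlap (log2 fold change -0.77 ± 0.15 SE, adjusted p = 0.00364 with limma).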

How the data were processed

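RNA of C2C12 cells, 3 WT and 3 MSTN-KO libraries, was sequenced on an Illumina HiSeq system, and the authors deposited FPKM per gene and library. The submitters' processing notes name Bowtie 0.12.2 and mm8, without a role. The quantification tool and gene filter are not given in the sources used here. Libraries were grouped by the genotype in their titles. Gene symbols, positions on GRCm38, exon length and GC content came from GENCODE M21 (14445 of 14548 identifiers matched). The genes and lists were chosen with earlier results of these data known.

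Genes that reached 1 FPKM in any library were fitted as log2(FPKM + 1) with limma 3.58.1 (eBayes with trend, R 4.3.3). Some genes reached 1 FPKM in only 1 group, among them *Rbm24*, *Srpk3*, *Cacna1s*, *Fabp4* and some muscle markers. Such genes were tested through the group in which they were high. Genes were called at a Benjamini-Hochberg adjusted p under 0.05 over all genes tested. Fold changes on this scale understate changes of low genes. The genes named were all 10 regulators, their paralogs, the 3 largest rises and falls among the other splicing genes called, *Myog*, *Cdkn1a*, *Mylpf*, the 3 most changed transcripts with regulated exons, and the 5 genes most correlated with the most changed and the most abundant regulator. An item that these rules name is not reported here. The other called transcripts with regulated exons and the levels of *Myod1*, *Des*, *Myf5*, *Fabp4* and *Dpt* were named after their values were seen. Of the markers of fibroblasts, macrophages and adipocytes, *Cd68* (up to 2.39 FPKM, overlapping between groups) and *Fabp4* were tested, and *Fabp4* was called higher. Among 5 myoblast markers, 4 were in the files, and *Pax7* rose while *Myod1* and *Des* fell.

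Each library was corrected for length and GC content with smooths from mgcv 1.9.3. Scripts were tested on simulated data. The depth of the FPKM files is unknown, so no counting error was given. Python 3.11.15 with scipy 1.17.1 was used for the exact tests.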

Additional observations from a re-analysis of the deposited data

How the results depend on the processing

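The call of *Rbm24* was kept in all 18 alternatives. *Mbnl2* was called in 14 of 18 and *Mbnl3* in 16 of 18, both with the same direction throughout. Without the filter on low values *Mbnl2* missed the threshold (-0.99, limma adjusted p = 0.0768), as it did without both WT replicate 3 and MSTN-KO replicate 3, a setting chosen after seeing the data (-0.62, 0.0821), which leaves 1 gene called lower among the 10, as does the fit without the filter. Scaling each library to a sum of 1000000 moved the median of all genes by -0.26, and with it *Mbnl3* to 0.51 (limma adjusted p = 0.0531), *Celf2* to -0.81 (0.0432), *Ptbp1* to 0.091 (0.451), *Celf4* to -0.01 (-0.015) and *Celf5* to -0.12. It called 0 of the 10 higher, 0 and 12 of the other splicing regulators higher and lower, and 360 and 2425 of all genes. The length and GC correction called *Ptbp1* (0.32, limma adjusted p = 0.0252), so that 2 of the 10 were higher, and turned the sign of *Celf1* (0.060) and *Celf5* (-0.021). Together with leaving out MSTN-KO replicate 3, also chosen after seeing the data, it gave 0.091 for *Mbnl1* and 0.052 for *Celf1*. Without both replicate 3 libraries *Celf1* was at 0.041, 1 of the other regulators was higher and 518 of all genes were higher. *Celf5* was at -0.01 (-0.0079) after scaling to the 75th percentile. The *Rbm38* to *Rbm24* difference was 1.67 in corrected log2(FPKM + 1) values, which hold a pseudocount that the ratio of FPKM does not. The causes of the other changes were not tested.

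Same-numbered deviations from the group means correlated at -0.02, -0.13 and -0.14 across genes. As these deviations hold the length and GC trends of the libraries, they cannot show whether replicate numbers paired the libraries. With the replicate number as a block, *Celf2* passed (-0.54, limma adjusted p = 0.0359) and 3 of the 10 were lower. Block and correction together gave 0.32 for *Ptbp1* (0.0364), 0.060 for *Celf1*, -0.021 for *Celf5* and 2 higher calls.

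With single libraries left out, and also both replicate 3 libraries, log2 fold changes ran from -0.19 to 0.01 (0.011) for *Rbfox2*, -0.60 to 0.00 (0.0040) for *Mbnl1*, -1.28 to -0.62 for *Mbnl2*, 0.59 to 0.73 for *Mbnl3*, -0.073 to 0.041 for *Celf1*, -0.73 to -0.26 for *Celf2*, 0.30 to 0.44 for *Ptbp1*, -0.55 to -0.058 for *Ptbp2* and -0.15 to 0.024 for *Rbm38*. *Celf2* passed without MSTN-KO replicate 2 and *Ptbp1* without WT replicate 1. Higher calls were 0 to 2 and lower calls 1 to 3 of the 10, 1 to 3 and 1 to 7 of the other splicing regulators, and 423 to 1184 and 606 to 1251 of all genes. *Celf5* ran from -0.035, without WT replicate 3, to 0.099.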

Other observations

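Among myoblast genes, *Pax7*, which marks undifferentiated muscle cells, was at 1.32, 0.901 and 0.836 FPKM in WT and at 2.03, 3.02 and 1.50 FPKM in MSTN-KO (log2 fold change 0.64, limma adjusted p = 0.0415). Its call was lost when any 1 library except MSTN-KO replicate 3 was left out (limma adjusted p from 0.0585 to 0.130). With the length and GC trends removed it was also lost, without the block (limma adjusted p = 0.0550) and with it (0.0572). It was lost too without the filter on low values (0.0733) and with scaling to the 75th percentile (0.0733) or to the same sum (0.129). The other alternative fits kept the call. For *Pax7* as for *Mbnl3*, every MSTN-KO library was above every WT library, and MSTN-KO replicate 2 was highest. The muscle factors *Myod1* (log2 fold change -0.58, limma adjusted p = 0.00986) and *Des* (-0.96, limma adjusted p = 0.000995) fell.

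Among the other regulators of splicing, *Rbm20*, which controls titin exons, was at 9.61, 9.09 and 7.51 FPKM in WT and at 6.97, 7.31 and 5.61 FPKM in MSTN-KO, without overlap but without passing (limma adjusted p = 0.134). *Raver1*, a partner of PTBP1, was at 45.9, 35.7 and 37.1 FPKM in WT and at 50.7, 48.8 and 55.2 FPKM in MSTN-KO (limma adjusted p = 0.0656). Both were named after their values were seen.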
